A study of Mus musculus with 4 samples.

Results

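Among single cells of the Tbx1 lineage, a small set with UMIs of Galntl6, Dach2, Pcdh9 and related genes was described across all genes and compared between genotypes. These Galntl6 Dach2 Lsamp cells, called the members here, numbered 281 of the 35228 cells kept (0.798%) and came from 4 libraries of E9.5 mouse embryos. RNA was counted at its 3′ end in droplets by unique molecular identifiers (UMIs), each of which marks 1 captured transcript. A library held GFP-positive cells sorted from the pharyngeal region and heart of pooled embryos. The cHet embryos were Tbx1Cre/+; Kmt2d F/+; GFP F/+ and the cKO embryos Tbx1Cre/+; Kmt2d F/F; GFP F/+, labelled as outbred SwissWebster, where the study's methods give a mixed background with C57BL/6. F is a floxed allele that Cre acts on, so cHet cells can lose 1 copy and cKO cells both copies of Kmt2d, the gene of a histone H3K4 methyltransferase, where Tbx1Cre is or was active. Cre sits in the Tbx1 gene itself, so every embryo of both genotypes carried 1 working copy of Tbx1, the gene of a T-box factor of the pharynx. Each genotype had 2 libraries, Rep1 from 4 pooled embryos and Rep2 from 3, and a different version of the 10x kit was used in each replicate. By the somite numbers in the study's sample list, the cHet pool of Rep1 spans a wider range on both sides of its cKO pool. The cHet pool of Rep2 is younger than its cKO pool, since its range ends at the somite number where the cKO range begins. Differences in stage and genotype therefore cannot be told apart.

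The members were chosen by measured values. Cells were kept with at least 3000 genes and at most 10% mitochondrial UMIs. A member had a UMI of at least 6 of 8 genes (Galntl6, Pcdh9, Dach2, Lingo2, Caln1, Lrfn2, Astn2 and Gabra2) and none of the neuronal gene Elavl3, the epithelial gene Epcam or the endothelial gene Cdh5. It also had at most 3 genes of each of 2 sets of 6 that mark other mesoderm cells. The first set was Lum, Foxd1, Vtn, Sparcl1, Cthrc1 and Tbx18, and the second Cyp26a1, Vcam1, Corin, Irx1, Ebf2 and Vegfd. Cells with at least 4 genes of the first set (5559 Lum Foxd1 Vtn cells) or of the second (4995 Cyp26a1 Vcam1 Irx1 cells), and at most 5 of the 8 genes, served for comparison beside all 34947 other cells kept. Levels of the 23 genes of the rule are given as values, without a test.

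As background, mesoderm of the embryonic head and pharynx forms muscle, vessels and connective tissue, and its loosely packed cells are called mesenchyme. Its regions are told apart by combinations of transcription factors, among them Ebf and Forkhead proteins. Dach1 and Dach2 are nuclear cofactors that act with Eya1 and its relatives. Lsamp, Negr1, Ntm, Opcml and Iglon5 form the IgLON family of membrane-anchored adhesion molecules, best known from neurons.

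The number of the 8 genes detected did not divide the members sharply from other cells. No clustering was run, and a count of detected genes cannot show whether the members form a separate cluster. Among the 27742 kept cells without Elavl3, Epcam and Cdh5, the share of cells fell with each further gene from 2 genes upward, with no gap at the threshold. In cHet Rep1 it went from 8.17% of these cells with 4 genes to 3.61% with 5, 1.43% with 6 and 0.277% with 7. Of the members, 201 had exactly 6 of the genes, 72 had 7 and 8 had all 8. Just outside the threshold, 429 cells met every other condition with 5 genes. At the limits on the other mesoderm sets, 157 members had 3 genes of the Lum set and 172 had 3 of the Cyp26a1 set, the most allowed, and these limits took the count of cells from 740 to 293.

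The members were a larger share of the cKO than of the cHet library in both replicates. They numbered 33 of 6238 cells in cHet Rep1 (0.529%, exact 95% binomial interval 0.364% to 0.742%) and 95 of 6660 in cKO Rep1 (1.43%, 1.16% to 1.74%). The Rep2 numbers were 40 of 9743 cells in cHet (0.411%, 0.294% to 0.559%) and 113 of 12587 in cKO (0.898%, 0.740% to 1.08%). The cKO shares were 2.70 and 2.19 times the cHet shares, and the genotypes did not overlap. The intervals cover counting error within a library only. An exact two-sided permutation test gave p = 0.5 within replicates and p = 0.333 over the 4 libraries, in each case the smallest that 2 libraries per genotype allow. The mean difference was 0.692 percentage points, and 0.428 without cKO Rep1. With no maximum on the Lum and Cyp26a1 sets the shares were 1.28% and 2.91% for Rep1, with 1.66% and 2.19% for Rep2, and the cKO share of Rep2 was then 1.31 times that of cHet.

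Depth and the level of the rule genes in other cells also differed between libraries, and their part in these shares was not tested. The median cell kept held 19468.5 UMIs in cHet Rep1 and 23534 in cKO Rep1, but 21594 in cHet Rep2 and 17426 in cKO Rep2. When each cell was thinned to 8000 UMIs before the rule was applied, the shares were 0.195% for cHet and 0.574% for cKO of Rep1, and 0.291% and 0.582% of Rep2, again higher in cKO. In the other cells, 5 of the 8 rule genes were also higher in cKO in both replicates, and 6 of the 8 were in the members. Galntl6, of the enzyme family that starts mucin-type glycosylation, was at 21.0, 40.8, 26.3 and 44.0 CPM in the other cells of cHet and cKO of Rep1 and then of Rep2, the order used for 4 values throughout. CPM is the gene's UMIs as a share of all UMIs of the set, on the usual scale. Lingo2, a leucine-rich membrane protein, was at 3.56, 8.77, 3.54 and 8.96 CPM there in the same order. The Lum Foxd1 Vtn cells were 15.15%, 18.0%, 14.8% and 15.7% of kept cells in that order, and the Cyp26a1 Vcam1 Irx1 cells 9.55%, 15.4%, 16.4% and 14.1%, so neither rose in cKO by as large a factor in both replicates.

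**Figure D1:**
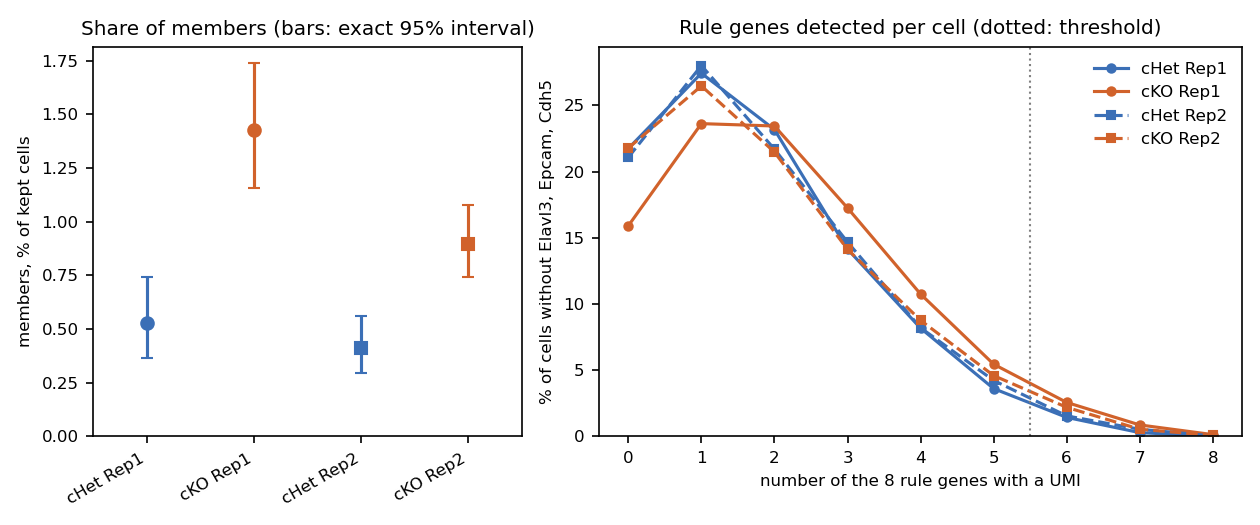
Left, members as a percentage of kept cells in each library, with exact 95% binomial intervals; both cKO libraries (1.43% and 0.898%) lie above both cHet libraries (0.529% and 0.411%). Right, percentage of kept cells without Elavl3, Epcam and Cdh5 against the number of the 8 rule genes with a UMI; the curves of the 4 libraries fall without a gap between 5 and 6 genes.

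The libraries held 179454146 to 234726019 UMIs. The files of cHet Rep1 hold 37093 barcodes against 9307 to 16775 in the other libraries, far more than the cells the study lists for it, so the kept cells rest on the filter above. Libraries of 1 replicate shared 12 barcodes (Rep1) and 46 (Rep2) among kept cells, and libraries of different replicates shared 0. The members' UMIs summed to 801900 in cHet Rep1, 2435028 in cKO Rep1, 847191 in cHet Rep2 and 1972429 in cKO Rep2, so the cHet sums are the limiting ones. The median member held 22642, 24552, 20890.5 and 16640 UMIs in that order. Doublets were not removed, and calling the highest Scrublet scores would have removed 1, 3, 2 and 4 members.

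The genes that set the members apart from other cells, a description without a test, included single receptor and adhesion genes. Beside the 8 rule genes, the 20 leading genes by mean log2 difference in CPM held Adcy8, Brinp1, Zfp804a, Galnt14, Grin2a, Lsamp, Gabrb1, Ntrk2, Tent5a, Naalad2 and the transcripts Gm13974 and Gm20125. Grin2a and Gabrb1 encode subunits of glutamate and GABA receptors, Ntrk2 the receptor of the growth factor BDNF, and Adcy8 an adenylyl cyclase. The 51 listed channel and receptor genes, which do not hold Grin2a or the rule gene Gabra2, summed to 907, 1192, 1230 and 1401 CPM in members and 931, 925, 1198 and 1363 in other cells, and were lower in members of cHet Rep1. Galntl6 (GRCm38 chromosome 8, 57774052 to 58912640) was at 206, 378, 264 and 381 CPM in members in the same order. Dach2 (chromosome X, 113297510 to 113836386) was at 486, 532, 509.9 and 628 CPM in that order, with means of 150.2 in other cells, 389.6 in Lum Foxd1 Vtn cells and 84.2 in Cyp26a1 Vcam1 Irx1 cells. For both genes every member library exceeded every library of other cells, but the members were chosen for UMIs of these genes.

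Lsamp (chromosome 16, 39984361 to 42181679), which the rule does not use, had the highest CPM of the 20 leading genes. It was at 741, 645, 881 and 886 CPM in members in the same order, against 141 to 183 in other cells and means of 200.2 and 232 in Lum Foxd1 Vtn and Cyp26a1 Vcam1 Irx1 cells. No member library overlapped with the other cells. A UMI of Lsamp was found in 96.8% to 100.0% of the members of a library, in 55.3% to 62.3% of other cells, and in 11.2% to 20.1% of endothelial cells (with UMIs of Cdh5 and Pecam1), whose median depth was 16724 to 29376 UMIs. With each cell thinned to 8000 UMIs the share was 88.4% to 95% in members and 42.7% to 44.8% in other cells, with 2 members left out as shallower. It was then 50.1% to 59.1% in Lum Foxd1 Vtn cells and 53.1% to 59.3% in Cyp26a1 Vcam1 Irx1 cells.

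The other IgLON genes stood out less. Negr1 was at 86.2 to 209.9 CPM in members and 80.9 to 128 in other cells, with a mean of 249 in Lum Foxd1 Vtn cells, above both. Ntm was at 42.7 to 82.6 CPM in members and 25.7 to 42.9 in other cells. Opcml was at 22.4 to 39.0 and 19.0 to 26.8 CPM, and Iglon5 at 1.18 to 3.74 and 1.29 to 1.94, and for all 4 genes the ranges overlapped.

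Transcription factors of head mesoderm and mesenchyme were present in the members. Ebf1 (chromosome 11, 44617317 to 45008091) was at 1703, 1551, 1746 and 1834 CPM in members of the 4 libraries, with means of 601 in other cells, 814 in Lum Foxd1 Vtn cells and 718 in Cyp26a1 Vcam1 Irx1 cells. Its relative Ebf3 was at 236 to 371 CPM against a mean of 136 in other cells. Dach1 was at 627, 644, 759 and 915 CPM in members, in the same order, with a mean of 453 in other cells. For these 3 genes every member library exceeded every library of other cells.

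Eya1, which acts with the Dach cofactors, had a mean of 345 CPM in members, 255 in other cells and 322 in Cyp26a1 Vcam1 Irx1 cells. The Forkhead genes Foxc1 and Foxc2 had means of 97.4 and 47.6 CPM in members and were higher in Lum Foxd1 Vtn cells (108 and 77.8). Twist1 and Prrx2, genes of mesenchyme, had means of 351 and 281 CPM in members and were higher in Cyp26a1 Vcam1 Irx1 cells (504 and 379.7). Foxp1, Nr2f2 and Foxd2 had means of 329, 398 and 29.0 CPM in members, and 283, 306 and 12.4 in other cells. In Lum Foxd1 Vtn cells they were at 428, 378 and 30.0 CPM, and Nr2f2 was at 388 in Cyp26a1 Vcam1 Irx1 cells, so that Foxp1 and Foxd2 were not highest in the members. The rule for naming factors took only genes that were higher in members than in the other cells of all 4 libraries, and 3 of the 15 cranial mesenchyme genes, Twist1, Prrx2 and Foxd2, met it. The 15 together summed to 787, 879, 968 and 1015 CPM in members and 802, 936, 1049 and 1037 in other cells, lower in members in all 4 libraries.

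Among the lists of mesoderm territories, many defining genes were at or near 0, but not every list had a lower sum than in other cells. Of 39 Hox genes 28 had no UMI in any member, and their summed level was 7.10 to 20.5 CPM against 131 to 203 in other cells. The somite genes Uncx, Nkx3-2 and Tbx6 had none, and Meox1 was at 8.62 to 28.3 CPM. Their list of 19 genes, which also holds Foxc1, Foxc2 and Foxp1, summed to 622 to 771 CPM in members and 486 to 690 in other cells, and was higher in members in all 4 libraries. The heart genes Gata4 and Wt1 had none, and Isl1, of the second heart field, was at 15.0 to 37.4 CPM against 49.4 to 112 in other cells. The 21 lateral plate and heart field genes, with Nr2f2 among them, summed to 576 to 789 CPM in members and 710 to 1056 in other cells. The 16 head mesoderm and branchiomeric muscle genes summed to 2570 to 3087 CPM in members and 1335 to 1723 in other cells, with Ebf1 alone at a mean of 1709 CPM in members. Of these, the branchiomeric muscle genes Tcf21 and Lhx2 had means of 7.48 and 3.56 CPM, where other cells had 31.1 and 29.3. Of 15 neural crest genes Sox10, Foxd3, Dlx1, Dlx2 and Erbb3 had no UMI, although the list summed to 214 to 292 CPM in members and 173 to 222 in other cells.

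The rule itself removed cells with Elavl3, Epcam or Cdh5 from the members but not from the other cells, so the levels of neuronal, epithelial and endothelial genes are a description and no support for the label. Of 19 neuronal genes, Neurog2, Pou4f1 and Nhlh1 had no UMI, Tubb3 was at 2.36 to 4.06 CPM, and the list summed to 155 to 203 CPM against 321 to 497 in other cells. Of 11 endothelial genes Tie1 and Esam had none and the list summed to 59.1 to 90.9 CPM against 206 to 313, with Emcn at 16.02 to 36.6. The 11 epithelial genes summed to 2.03 to 7.39 CPM with Cdh1 at 0, the 11 cardiac muscle genes to 15.3 to 29.9 CPM, and the 12 blood genes to 1.18 to 19.95 CPM. The 14 neural progenitor genes summed to 68.6, 78.4, 111 and 87.2 CPM in members and 91.1, 101, 81.2 and 80.4 in other cells, higher in members in both Rep2 libraries, and mostly came from Irx3 (66.1, 72.3, 105 and 82.6 CPM in members), while Sox2 was at 0.00 to 2.03. No full marker set of 1 territory was found, and since the factors described above were taken for being higher in members, they are no independent check of the label of mesoderm.

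**Figure D2:**
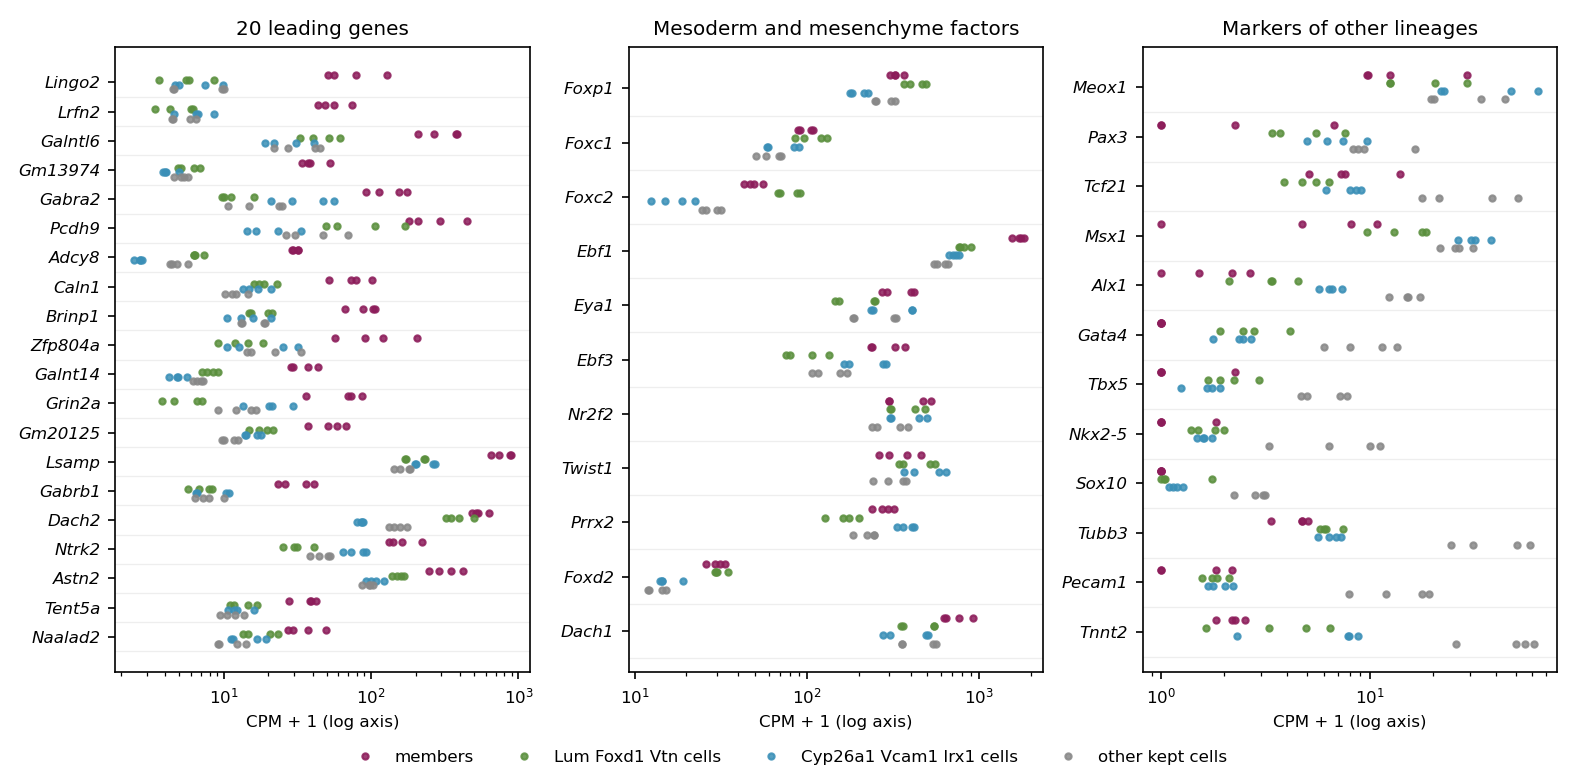
Level in CPM plus 1 (log axis) in members, Lum Foxd1 Vtn cells, Cyp26a1 Vcam1 Irx1 cells and other kept cells, 1 point per library. Members lie to the right of other kept cells for the 20 leading genes, such as Lsamp at 645 to 886 CPM, and for Ebf1. These genes were chosen for being higher in members, and the leading genes hold the 8 rule genes. For the markers of other lineages, picked by hand and not by a rule, members lie mostly to the left, with Gata4 and Sox10 at 0. Meox1, Pax3, Tcf21, Msx1 and Alx1 come from lists that also hold factors of the middle panel. The somite, head mesoderm and neural crest lists summed higher in members in all 4 libraries. The cranial mesenchyme, lateral plate, neuronal, endothelial and cardiac muscle lists summed lower.

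Long genes held a larger share of UMIs in the members. Genes spanning over 500 kb held 2.47%, 2.56%, 2.88% and 3.20% of the members' UMIs, by library in the same order, against 1.65%, 1.71%, 2.14% and 2.25% in other cells. These shares hold the 8 rule genes, of which 5 are that long and for which the members were chosen. With those 8 left out, an alternative added after seeing the data, the shares were 2.35%, 2.41%, 2.75% and 3.01% in members and 1.62%, 1.68%, 2.105% and 2.21% in other cells. Both are a description of chosen cells. The nuclear RNA Malat1 was at 4933, 5044, 3010 and 3502 CPM in members and at 4164, 4090, 2864 and 3306 in other cells. Median mitochondrial UMIs were 2.45%, 2.31%, 1.32% and 1.48% in members and 2.10%, 1.96%, 1.26% and 1.37% in other cells. In members and in other cells alike the share from long genes was larger in cKO than in cHet of the same replicate, and its part in the differences below was not tested. S and G2/M phase genes summed to 4694 to 6576 and 9893 to 11790 CPM in members, and to 4674 to 5897 and 9248 to 11410 in other cells.

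The genotypes were then compared within the members, on UMIs summed per library. Of 9667 genes tested, 39 were higher in cKO (0.403%) and 22 lower (0.228%) by edgeR's quasi-likelihood test with a block for the replicate, at a Benjamini-Hochberg adjusted p under 0.05. The higher genes included the adhesion and guidance genes Ncam2, Pcdh11x, Unc5c, Negr1 and Ntng1, and the lower genes included Crabp2, which binds retinoic acid, and the matrix genes Col25a1 and Bgn. The cHet and cKO libraries did not overlap for 34 of the 39 and 21 of the 22. These genes were called on the same values, and the share over all genes tested was not counted. Here and for single genes below, lack of overlap is a description and no further support. DESeq2 called 0 genes (48 had an unadjusted p under 0.05), edgeR without the block called 0 (107), and edgeR called 0 when any 1 library was left out (60 to 206), where the block could not be kept, although all 61 genes kept their sign in the first 2 of these. The calls therefore rest on the blocked edgeR fit, which has 1 residual degree of freedom. Its SE and p-values lean on a dispersion shared across genes. For genes such as Adarb2 below they can understate the spread between these pools of embryos. DESeq2 kept the block, and both it and edgeR without the block used the same sums, so the kept signs are no further support.

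Kmt2d, the targeted gene, was at 12.7 in cHet and 15.99 in cKO for Rep1, and at 19.98 and 19.4 for Rep2 in normalised CPM (scaled by TMM, as are all CPM in the comparisons that follow), on 9, 34, 19 and 42 UMIs. A count at the 3′ end carries no information on the floxed exons and is no check of the genotype. Tbx1 was at 145 in cHet and 118 in cKO for Rep1, and at 77.8 and 63.7 for Rep2 (log2 fold change −0.30 ± 0.15 SE, edgeR adjusted p = 0.673). Lsamp was at 838 and 739 for Rep1, and at 784 and 806 for Rep2 (log2 fold change −0.07 ± 0.10 SE, edgeR adjusted p = 0.953), and Dach1 at 709 and 738 for Rep1, and at 676 and 833 for Rep2 (log2 fold change 0.18 ± 0.10 SE, edgeR adjusted p = 0.698). Neither Tbx1, Lsamp nor Dach1 passed the test, and for Lsamp the replicates differed in sign. Of the rule genes, Galntl6 was at 233 and 433 for Rep1, and at 236 and 346 for Rep2, and Caln1, a calcium-binding protein, at 87.4 and 57.9 for Rep1, and at 89.4 and 65.5 for Rep2, so that the rule genes did not all move one way.

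Adarb2, related to RNA-editing enzymes and best known from brain (chromosome 13, 8202866 to 8768747), had the lowest p of the genes tested. It was at 69.1 in cHet and 138 in cKO for Rep1, and at 9.46 and 83.0 for Rep2 (log2 fold change 1.63 ± 0.21 SE, edgeR adjusted p = 1.26e-09). Ncam2, a neural cell adhesion molecule (chromosome 16, 81200697 to 81626828), was at 14.1 and 41.4 for Rep1, and at 5.26 and 54.9 for Rep2 (2.41 ± 0.34, adjusted p = 7.94e-09). The protocadherin Pcdh11x was at 8.46 and 72.0 for Rep1, and at 29.4 and 65.0 for Rep2 (1.76 ± 0.25, adjusted p = 1.15e-08). For all 3 both cKO libraries exceeded both cHet libraries. The cHet values rest on few cells: UMIs of Ncam2 were found in 3, 18, 3 and 31 members, and those of Adarb2 in 12, 33, 6 and 36, of the 33, 95, 40 and 113 members of the libraries.

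The netrin receptor Unc5c was at 262 in cHet and 376 in cKO for Rep1, and at 124 and 249 for Rep2 (log2 fold change 0.74 ± 0.11 SE, edgeR adjusted p = 1.50e-07). Ntng1, a membrane-bound netrin, was at 214 and 280.4 for Rep1, and at 103 and 205 for Rep2 (0.66 ± 0.12, adjusted p = 3.52e-05). For both, cHet Rep1 lay above cKO Rep2, so the genotypes differed within but not across replicates. The IgLON gene Negr1 was at 145 and 182 for Rep1, and at 76.8 and 191 for Rep2 (0.80 ± 0.13, adjusted p = 2.88e-06). The adhesion receptor Adgrb3 was at 55.0 and 122 for Rep1, and at 35.8 and 67.8 for Rep2 (1.05 ± 0.19, adjusted p = 4.97e-05), and the scaffold protein Magi2 at 45.1 and 85.2 for Rep1, and at 21.0 and 62.7 for Rep2 (1.20 ± 0.22, adjusted p = 4.97e-05). Negr1, Adgrb3 and Magi2 had no overlap between the genotypes. The share of members with a UMI was lower in cKO than in cHet of Rep1 for 6 of the 12 named genes higher in cKO, namely Adarb2 (36.4% and 34.7%), Ntng1 (81.8% and 76.8%), Foxp2, Plcxd3, Unc5c and Negr1. In the order used above it was 72.7%, 65.3%, 45.0% and 68.1% for Unc5c, with 31.7% of the UMIs of cKO Rep1 in 1 cell, and 75.8%, 62.1%, 50.0% and 63.7% for Negr1. With each cell thinned to 8000 UMIs these shares were 53.1%, 51.6%, 32.5% and 58.9% for Unc5c, and 56.2%, 44.2%, 32.5% and 54.5% for Negr1.

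Foxp2, a Forkhead transcription factor (chromosome 6, 14901349 to 15441977), was at 464 in cHet and 609.7 in cKO for Rep1, and at 387 and 613 for Rep2 (log2 fold change 0.53 ± 0.10 SE, edgeR adjusted p = 0.000106) and had UMIs in 33, 94, 39 and 112 members. The cadherin Cdh6 was at 62.1 and 135 for Rep1, and at 74.7 and 114 for Rep2 (0.84 ± 0.16, adjusted p = 0.000106). Igfbp5, which binds insulin-like growth factors, was at 56.4 and 124 for Rep1, and at 81.0 and 124 for Rep2 (0.83 ± 0.16, adjusted p = 0.000121). For all 3 the genotypes did not overlap. Plcxd3, of a phospholipase family, passed the test (2.56 ± 0.49, adjusted p = 0.000131) on 4, 46, 2 and 48 UMIs, with 50.0% to 52.2% of those of a library in 1 cell. Zfp804a, 1 of the leading genes of the members and named here after its values were seen, was at 102 and 137 for Rep1, and at 49.4 and 184 for Rep2 (1.15 ± 0.19, adjusted p = 0.000575).

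Among the genes lower in cKO, Crabp2 (chromosome 3, 87948666 to 87953376) was at 76.2 in cHet and 54.1 in cKO for Rep1, and at 70.4 and 22.1 for Rep2 (log2 fold change −1.01 ± 0.21 SE, edgeR adjusted p = 0.000463). Nav1, a neuron navigator protein, was at 73.3 and 45.6 for Rep1, and at 116 and 59.0 for Rep2 (−0.85 ± 0.18, adjusted p = 0.000748). Plvap, best known from fenestrated endothelium, was at 35.3 and 11.3 for Rep1, and at 32.6 and 12.9 for Rep2 (−1.47 ± 0.31, adjusted p = 0.000951), and none of the 4 endothelial marker genes tested was called, with a median log2 fold change of −0.32. The genotypes did not overlap for these 3 genes. Col25a1, a transmembrane collagen, was at 285 and 234 for Rep1, and at 266 and 178 for Rep2 (−0.43 ± 0.11, adjusted p = 0.0172), and Tmem108, a transmembrane protein, at 156 and 119.5 for Rep1, and at 196 and 132 for Rep2 (−0.49 ± 0.13, adjusted p = 0.0188). These too did not overlap.

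The other 7 of the 12 named genes lower in cKO had few UMIs or lay in few cells. Rffl, a ubiquitin ligase, had 26, 4, 8 and 5 UMIs by library, with 69.2% of those of cHet Rep1 in 1 cell. Nrg1, a growth factor of the neuregulin family, had 21, 29, 21 and 14 UMIs, with 76.2% and 71.4% of the cHet UMIs in 1 cell of each library. Arg1, the enzyme arginase, was found in 5, 7, 5 and 1 members and Xkr4, a membrane protein, in 6, 8, 7 and 11. Tafa4, Gstk1 and AC103362.1 were found in at most 9 cHet members of a library. Genes called lower outside the naming rule, picked after their values were seen, were found more widely. The calcium channel Itpr1 of the endoplasmic reticulum had 144, 336, 194 and 308 UMIs in 28, 76, 38 and 94 members, the interferon-induced Ifitm2 211, 457, 126 and 222 in 33, 85, 37 and 86, and Eda, a ligand of the TNF family, 109, 196, 137 and 253 in 25, 52, 30 and 75. With the highest cell of each gene left out of every library, 55 of the 61 called genes could be tested, 21 were still called and all 55 kept their sign. That leaves out 1 of 33 and 40 members in cHet but 1 of 95 and 113 in cKO, so the genotypes are not treated alike. The sums are otherwise the same, and the kept signs are no further support.

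**Figure D3:**
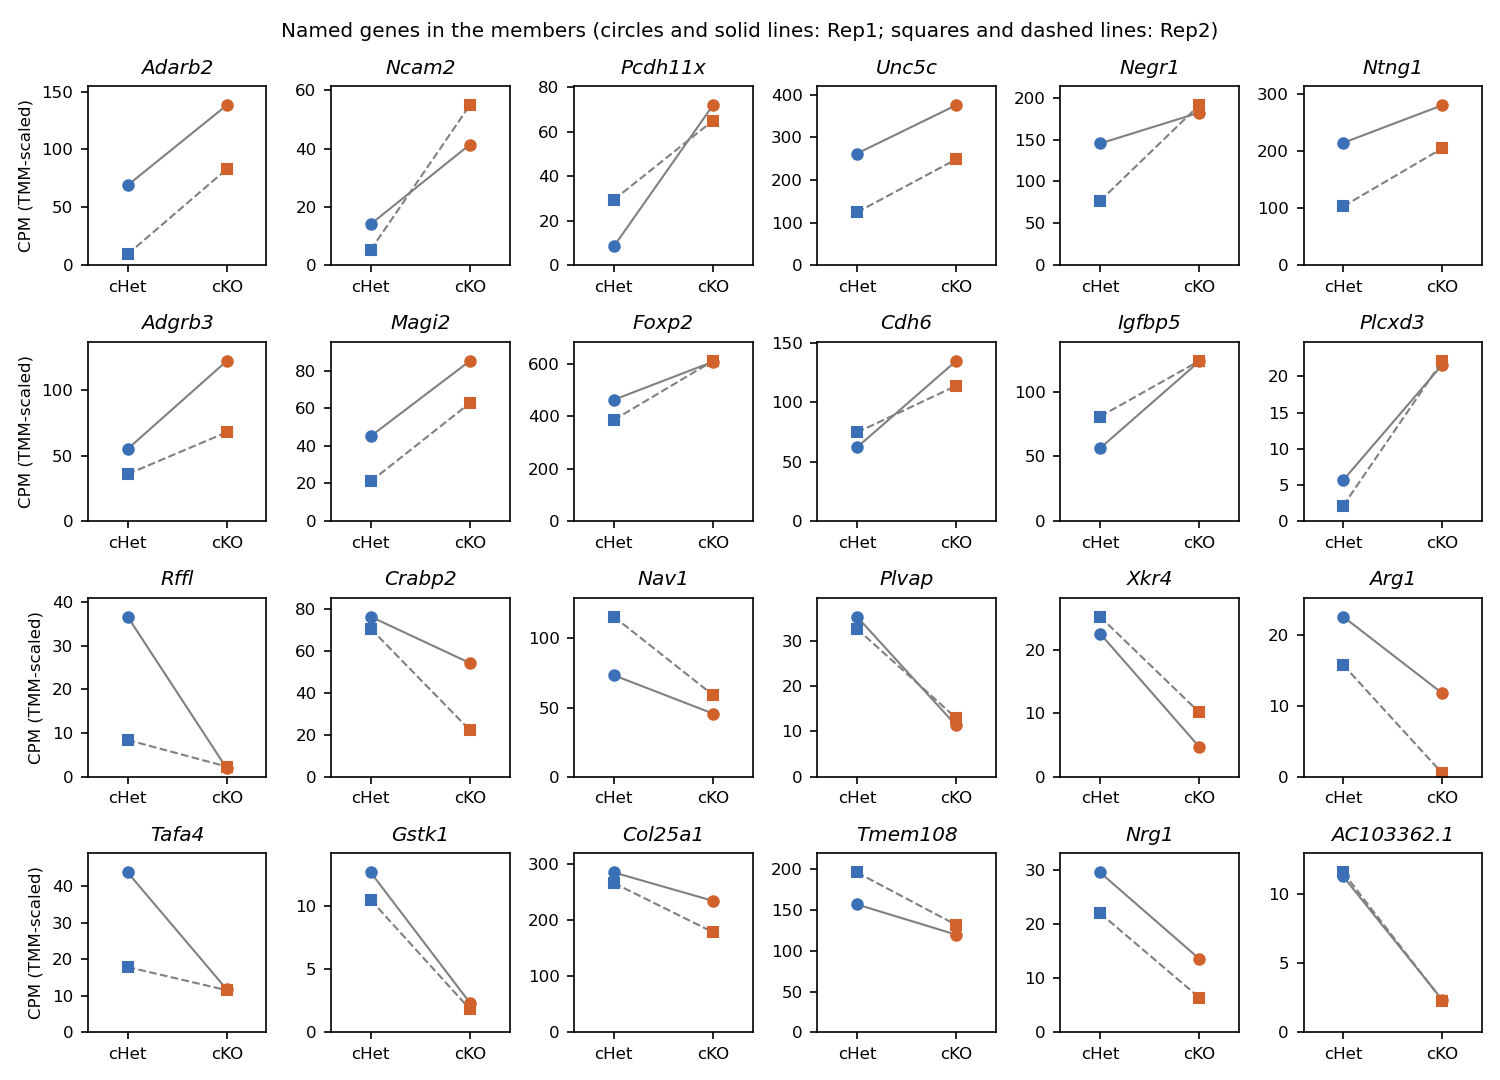
TMM-scaled CPM in the members (axes from 0) for the 12 named genes higher and the 12 lower in cKO, with circles for Rep1 and squares for Rep2. The lines that join the libraries of a replicate run upward in the upper 12 panels and downward in the lower 12.

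Gene lists were read by their counts, beside the 0.631% of all genes tested that were called and a median log2 fold change of 0.01 over them. Of 62 adhesion genes best known from neurons 35 were tested, with a median of 0.22. It was 0.015 in Rep1 and 0.403 in Rep2, where all genes tested had 0.011 and 0.004. Of the adhesion genes 8 were higher and 0 lower. Beside Ncam2, Pcdh11x and Cdh6 these were Pcdh17, Alcam, Mdga2, Lrrtm4 and Cntn4. Pcdh17, a protocadherin, was at 15.5 in cHet and 42.8 in cKO for Rep1, and at 11.6 and 33.2 for Rep2 (log2 fold change 1.49 ± 0.33 SE, edgeR adjusted p = 0.00192). Alcam and Mdga2, of the immunoglobulin superfamily, rested on 1 replicate each. Alcam was at 95.9 and 96.9 for Rep1, and at 57.8 and 145 for Rep2, and Mdga2 at 31.0 and 103 for Rep1, and at 71.5 and 75.2 for Rep2. Lrrtm4 and Cntn4 had 2, 34, 0 and 17 UMIs and 1, 26, 0 and 16 UMIs, with 55.9% and 57.7% of those of cKO Rep1 in 1 cell.

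Of 42 axon guidance genes 34 were tested, 5 were higher and 0 lower, with a median of 0.10 (0.002 in Rep1 and 0.211 in Rep2). Robo2, a Slit receptor, was at 718 in cHet and 794 in cKO for Rep1, and at 612 and 927 for Rep2, and Epha4, an ephrin receptor, at 134 and 175 for Rep1, and at 122 and 179.5 for Rep2. Plxna2, a semaphorin coreceptor, was at 8.46 and 35.8 for Rep1, and at 14.7 and 32.3 for Rep2. Unc5c and Ntng1 were the others. Of 51 channel and receptor genes 20 were tested, with a median of 0.22 (0.602 in Rep1 and 0.104 in Rep2), and 3 were higher and 0 lower. These were the glutamate receptor subunits Grik2 and Gria4 and the potassium channel subunit Kcnb2. Grik2 was at 26.8 and 51.8 for Rep1, and at 34.7 and 72.0 for Rep2, Kcnb2 at 52.2 and 118 for Rep1, and at 75.7 and 92.7 for Rep2, and Gria4 at 197 and 196 for Rep1, and at 166 and 287 for Rep2, with opposite signs in the replicates. In the adhesion, guidance and channel lists every call was toward cKO, but the lists were chosen with earlier results of these data known. Nav1 and the calcium channel Itpr1, both called lower, lie outside these lists.

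Long genes were frequent among the genes higher in cKO. Of 163 tested genes that span over 500 kb, 17 were higher, 1 (Nrg1) was lower and 11.0% were called, with a median log2 fold change of 0.08. The higher genes had a median span of 426 kb and the lower genes of 54.7 kb, where all genes tested had 28.5 kb. Of the 8 rule genes, 5 span over 500 kb, with a median of 708 kb.

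**Figure D4:**
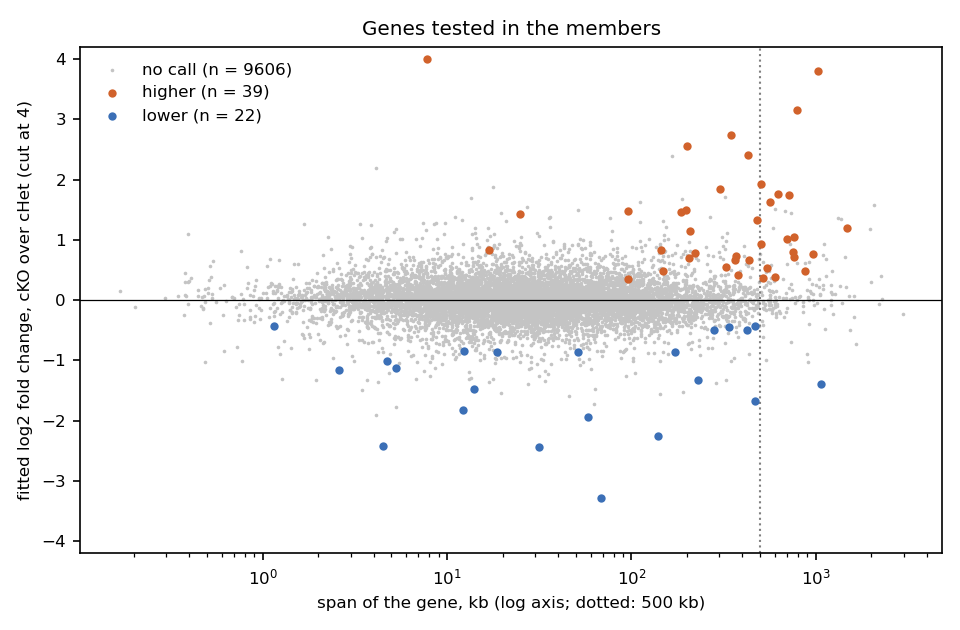
Fitted log2 fold change of cKO over cHet (cut at 4) of each gene tested in the members against the span of the gene in kb (log axis), with the 39 genes higher in cKO in orange and the 22 lower in blue. Beyond the dotted line at 500 kb lie 17 of the higher genes and 1 of the lower genes.

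Signalling and territory lists held few calls. Of 17 retinoic acid genes 11 were tested, Crabp2 was lower and 0 were higher, with a median of −0.32. Of 28 matrix genes tested, Col25a1 and Bgn, a proteoglycan at 56.4 and 30.6 for Rep1, and at 57.8 and 32.8 for Rep2, were lower. Of 13 FGF genes tested Fgf13, an intracellular relative of the family, was higher (log2 fold change 1.93 ± 0.39 SE, edgeR adjusted p = 0.000366) on 3, 46, 10 and 78 UMIs. No gene was called among the 15 BMP, 23 Wnt, 10 Hedgehog and 6 Notch genes tested, nor among the 9 tested genes of the KMT2D and KMT2C complexes, the 7 somite, 7 head mesoderm and 6 lateral plate genes. Zic1, a zinc finger factor and 1 of 8 cranial mesenchyme genes tested (chromosome 9, 91358058 to 91365810), was called on 0, 22, 0 and 18 UMIs, which lay in 0, 9, 0 and 5 members. The 77 ribosomal protein genes tested had a median of 0.11 and 97.4% were positive, but none was called.

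The response of the members was then set against that of other cells, in edgeR fits with the library as a block that test the difference of the genotype effects itself. The 3 fits share the members, and the other kept cells include both comparison sets. Each has 1 residual degree of freedom and 1 dispersion for sums of few members and of many other cells. The common dispersion was 0.00462 in the members' fit and 0.00177, 0.00102 and 0.0013 in these 3 fits. Their SE and p-values can therefore also understate the spread between pools of embryos. Against all other cells 26 of 18315 genes were called (0.142%), of which 21 (0.115%) had the larger value of cKO over cHet in members and 5 (0.0273%) the smaller. Against Lum Foxd1 Vtn cells 32 of 14440 were called (0.222%), 26 larger (0.180%) and 6 smaller (0.0416%). Against Cyp26a1 Vcam1 Irx1 cells 37 of 13911 were called (0.266%), 28 larger (0.201%) and 9 smaller (0.0647%). Of these, 18, 17 and 19 were also called within the members. DESeq2 called 0 in each fit, where 101, 63 and 65 genes had an unadjusted p under 0.05. In fits without the replicate term that left out 1 library at a time, the counts were 6, 3 and 9 without cKO Rep1, 7, 9 and 11 without cHet Rep2, 16, 22 and 18 without cHet Rep1, and 42, 25 and 16 without cKO Rep2.

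Adarb2, Unc5c, Foxp2, Igfbp5 and Plxna2 had a larger value of cKO over cHet in the members than in each of the 3 other sets. In other cells the log2 difference of Adarb2 was 0.21 and 0.25 (Rep1 and Rep2), below the members by 1.45 ± 0.22 SE, edgeR adjusted p = 1.56e-06. Igfbp5 had −0.12 and 0.13 there (difference 0.85 ± 0.14 SE, edgeR adjusted p = 1.44e-05) and Unc5c 0.14 and 0.22 (difference 0.59 ± 0.10 SE, edgeR adjusted p = 1.44e-05). Foxp2 had 0.12 and 0.20 in Lum Foxd1 Vtn cells (difference 0.39 ± 0.07 SE, edgeR adjusted p = 0.000414), and Plxna2 had −0.14 and −0.38 (difference 1.80 ± 0.34 SE, edgeR adjusted p = 0.000414). In both replicates the members lay above the other sets for these 5 genes, but the difference of Unc5c from other cells was −0.07 without cHet Rep2. Cadm1, a synaptic adhesion molecule, had −0.14 and −0.29 in Cyp26a1 Vcam1 Irx1 cells (difference 0.80 ± 0.13 SE, edgeR adjusted p = 3.45e-06), and 47.9% and 46.4% of the members' cHet UMIs lay in 1 cell of each library. Fgf13, Plcxd3, Ccbe1, Ubb and Zic1 were also called in all 3 fits, and Rffl and Xkr4 with the smaller value in the members. Ccbe1 and Zic1 had no UMI in the members of either cHet library, and UMIs of Plcxd3 lay in few cells. The same member sums entered all 3 fits, so being called in each is no further support.

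For several genes higher in cKO members, no difference from all other cells was called. Negr1 differed by 0.41 and 0.54 on the log2 scale in other cells (difference 0.36 ± 0.14 SE, edgeR adjusted p = 0.807), but its difference from Cyp26a1 Vcam1 Irx1 cells was called (adjusted p = 0.00100). Ncam2 differed by 1.10 and 1.31 in other cells (difference 1.23 ± 0.42 SE, edgeR adjusted p = 0.503), but its difference from Lum Foxd1 Vtn cells was called (adjusted p = 0.0118). Mdga2 differed by 1.23 and 0.94 (difference −0.30 ± 0.21 SE, edgeR adjusted p = 1.0) and Robo2 by 0.29 and 0.22 (difference 0.16 ± 0.07 SE, edgeR adjusted p = 1.0), so both were also higher in cKO in other cells in each replicate. Crabp2, lower in cKO members, was also lower in cKO in Lum Foxd1 Vtn cells (−0.74 and −0.49, difference −0.35 ± 0.19 SE, edgeR adjusted p = 0.939). Its differences from other cells and from Cyp26a1 Vcam1 Irx1 cells were called (edgeR adjusted p = 0.00294 and 0.0218). A p above the threshold does not show that these responses were equal.

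**Figure D5:**
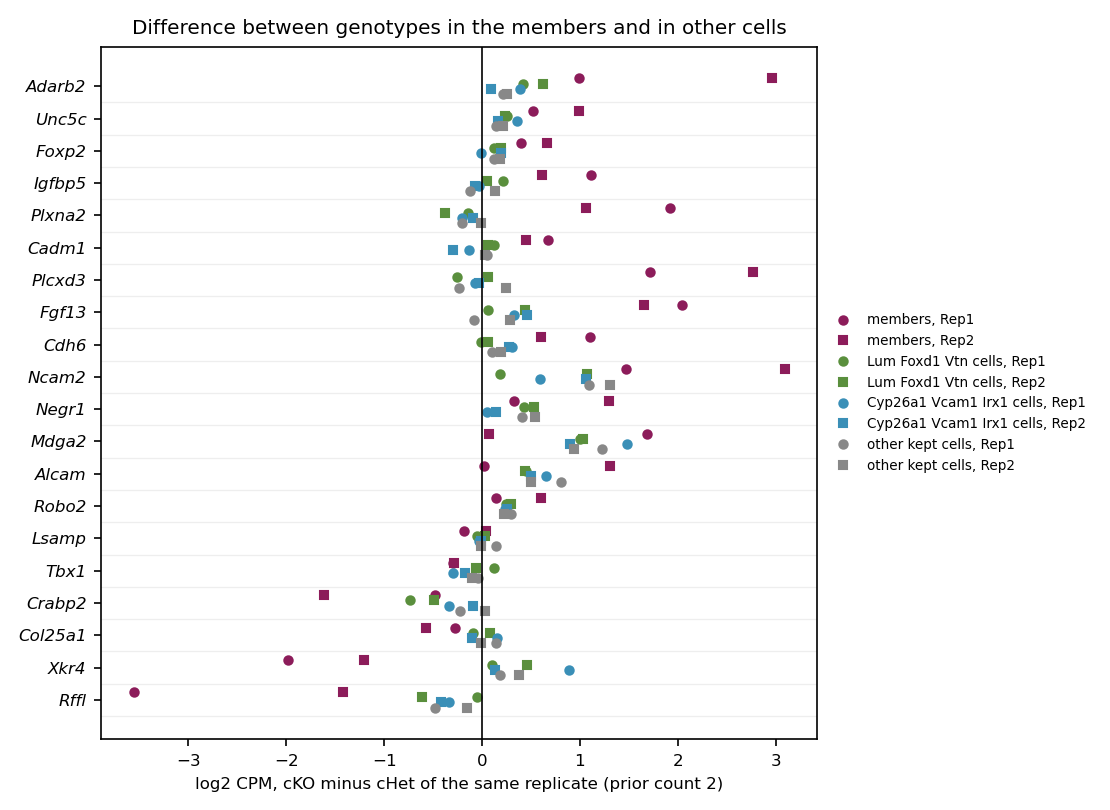
Difference in log2 CPM (prior count 2) between cKO and cHet of the same replicate for 20 genes, in the members, in Lum Foxd1 Vtn cells, in Cyp26a1 Vcam1 Irx1 cells and in other kept cells, with circles for Rep1 and squares for Rep2. Adarb2 stands at 0.99 and 2.97 in the members and at 0.21 and 0.25 in other kept cells, while Lsamp lies near 0 in every set.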

How the data were processed

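The authors deposited unscaled UMI counts of genes by barcodes, made with Cell Ranger (8.0.1 and mm10 per the labels, 7.0.1 per the matrix headers of Rep1). The study's later steps, such as SoupX, are not in these counts, and whether intronic reads were counted is not given in the sources used here. GENCODE M21 (GRCm38) held 32235 of the 32285 gene IDs.

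The members and the gene lists were chosen with earlier results of these data known. UMIs were summed per library and set of cells, since cells of 1 pool are not replicates. Genotypes were compared with edgeR 4.0.16 in R 4.3.3 (quasi-likelihood, robust, TMM, filterByExpr, replicate as a block, Benjamini-Hochberg adjustment over all genes tested). A run of the fit on simulated counts used a dispersion estimated from these same sums. It cannot show whether the p-values hold for the spread between pools of embryos. The replicate number marks a kit and thus a batch, and libraries of a replicate deviated together (correlation 0.672). Alternatives used DESeq2 1.42.0, other rules, thinning, Scrublet (scanpy 1.11.5, Python 3.11.15) and leaving out each library. Scrublet's own threshold marked 0.0801% and 0.105% of cells in Rep1, so cells were called down to the score of an assumed doublet share of 3.90% to 5.33%.

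Named genes were up to 12 per direction of lowest p with an adjusted p under 0.05, the same sign in both replicates and at least 20 UMIs, up to 6 per difference between cell sets, called members of the lists, Kmt2d, Tbx1, Dach1, the IgLON genes and the rule genes. Leading genes had at least 20 CPM in members of every library and exceeded other cells in all 4 (prior 1 CPM). Replicate log2 differences used a prior count of 2. A few genes that these rules name are not reported here.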

Additional observations from a re-analysis of the deposited data

Results flagged for a closer look

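For the genes below, the difference between genotypes itself differed between the members and another set of cells (edgeR, adjusted p of the difference). With 1 residual degree of freedom per fit, these p-values can understate the spread between pools of embryos. Against other kept cells these were Adarb2 (adjusted p = 1.56e-06), Igfbp5, Unc5c and Ctnna3 (each 1.44e-05), Ubb (0.000124) and Plcxd3 (0.000269). Against Lum Foxd1 Vtn cells they were Adarb2 (0.000223), Foxp2, Plxna2 and Xkr4 (each 0.000414), Ctnna3 (0.000438) and Plcxd3 (0.000536). Against Cyp26a1 Vcam1 Irx1 cells they were Cadm1 and Igfbp5 (each 3.45e-06), Foxp2 (2.27e-05), Adarb2 (7.80e-05), Ccbe1 (0.000109) and Plxna2 (0.000217). Of these, Xkr4 had the smaller value of cKO over cHet in the members, and the others the larger.

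Ctnna3 had 3, 70, 5 and 10 UMIs in members, by library (cHet and cKO of Rep1, then of Rep2), with 97.1% of those of cKO Rep1 in 1 cell. Ccbe1 had 0, 39, 0 and 9 UMIs in 0, 7, 0 and 4 members, and its fitted difference, which depends on the prior count, is not given. Ubb was lower in cKO in Rep1 and higher in Rep2, in the members (−0.71 and 0.84 on the log2 scale) and in other cells (−1.05 and 0.46).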

How the results depend on the processing

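The calls in the members depended on the replicate block and on the method. In edgeR 61 genes were called with the block and 0 without it. The differences from other cells, Lum Foxd1 Vtn cells and Cyp26a1 Vcam1 Irx1 cells went from 26, 32 and 37 to 15, 17 and 4. DESeq2, with the block kept, called 0 in all 4. Counts for the members and these 3 sets were 17, 10, 12 and 4 with at least 7 of the 8 genes, and 5, 2, 2 and 1 after thinning to 8000 UMIs before the rule. With at least 5 genes the differences numbered 67, 70 and 73, and without doublets 21 and 23 in the last 2 sets. Leaving out 1 library gave 0 to 0 in members, and 6 to 42, 3 to 25 and 9 to 18. In alternatives chosen after seeing the data, members gave 25 calls without the highest cell of each gene, 6 when thinned after the rule and 146 with no maximum on the Lum and Cyp26a1 sets. The mean difference in share stayed positive: 0.240 points with 7 genes, 1.504 with 5, 0.335 thinned, 1.08 with no maxima (where the Rep2 ratio fell from 2.19 to 1.31), and 0.428 to 0.956 leaving out 1 library. The causes were not tested.

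Of the 61 genes called in members, 37 could be tested when thinned before the rule, where 1 was still called and 33 kept their sign. With 7 genes 12 of 41 were still called and 38 kept their sign, and with no maxima 37 and 60 of 61. In the 4 fits that left out 1 library 0 were still called, and 1 turned its sign in each of 3 of them. Among the named genes the sign of the log2 fold change turned for Col25a1 (0.082, thinned), Robo2 and Epha4 (−0.034 and −0.59, 7 genes), Cntn4 (−0.41, no maxima) and, among genes not called, Kmt2d (−0.13 with 5 genes, −0.074 without doublets, −0.20 with no maxima, −0.18 to 0.47 leaving out 1 library), Tbx1 (0.17 thinned, −0.80 to 0.21 leaving out 1 library), Lsamp (0.065 with 7 genes, 0.12 thinned), Ntm (−0.0044 without doublets, −0.26 to 0.35 leaving out 1 library) and Dach1 (−0.049, 7 genes). The difference of Unc5c from other cells was −0.071 to 1.28 leaving out 1 library. That of Ctnna3 was −1.09 without doublets, −1.15 thinned and −0.0063 to 4.06 leaving out 1 library, and from Lum Foxd1 Vtn cells −0.78 without doublets. The share of UMIs from genes over 500 kb was 0.844 points larger in members than in other cells, and 0.7275 without the rule genes.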
